A study of Mus musculus with 7 samples.

Results

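Ribosomal protein genes encode the proteins that, with ribosomal RNA, build the large and the small subunit of the cytosolic ribosome. Each ribosome holds a single copy of nearly every one of these proteins, and cells make them in matched amounts. Their mRNAs start with a pyrimidine tract, the terminal oligopyrimidine (TOP) motif, through which mTORC1 and LARP1 set their translation, so that protein output can change with no change in mRNA. Haematopoietic stem cells (HSCs) keep a low rate of protein synthesis, and in human, mutations in single ribosomal protein genes cause Diamond-Blackfan anaemia. METTL3, the enzyme deleted here, writes N6-methyladenosine into mRNA as the active partner of a methyltransferase complex.

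The full set of cytosolic ribosomal protein genes was taken by symbol: Rpl or Rps followed by digits and at most 1 of the letters a, x or l, or Rplp0, Rplp1, Rplp2 or Rpsa. This gave 81 of the 23038 genes of the deposited table, 49 of the large and 32 of the small subunit. The rule used no measured value. It leaves out, among others, Fau and the paralogs Rpl36al, Rpl22l1, Rpl7l1 and Rps4y2, which are given separately. One member, Rpl10l, was without reads in both groups, and 80 members had reads.

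The compared HSCs came from Mx1-cre; Mettl3fl/fl mice, in which the interferon-responsive Mx1 promoter drives Cre, and from Cre-negative littermates, which carry no Cre. Both groups were C57BL/6 mice given 10 µg pIpC, a double-stranded RNA analogue, in 5 doses, and were killed 10 days after the last of them, so the control cells had met the inducer too. The labels call the animals adult, and say nothing of how many of the sorted mutant cells had recombined the allele. For each library 150 cells were sorted as Lineage- Sca1+ cKit+ CD150+ CD48- cells and made into cDNA with Smart-seq2, a full-length protocol, giving 4 mutant and 3 control libraries from different mice. The authors deposited 1 RPKM value (a read count scaled to gene length and library size) for each gene in each group, so no value per animal, SD or p-value can be given, and no difference below has a replicate check.

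Mettl3 was at 9.60 RPKM in mutants and 49.8 RPKM in controls. Of the genes of the sort, Kit was at 39.9 and 67.4 RPKM, Ly6a (Sca1) at 167 and 152 RPKM, Slamf1 (CD150) at 27.1 and 25.9 RPKM and Cd48 at 4.04 and 5.33 RPKM in mutants and controls. All 10 HSC markers had reads, and 5 were higher and 5 lower in mutants. None was at least 1.5-fold higher and 3 were at least 1.5-fold lower, beside 13.0% and 10.4% of all genes with reads. At least 2-fold lower was 1 of the 3, beside 3.47% of all genes with reads. Among these 3 were Kit and, at 11.9 and 19.3 RPKM, Hlf. The list summed to 575 RPKM in mutants and 803 RPKM in controls. No reads were found for the T cell genes Cd3e and Cd8a and the B cell genes Cd79a and Ms4a1 in either group. Of 13 measured lineage genes, 8 had reads, and the list summed to 41.9 RPKM in mutants and 43.7 RPKM in controls, most of it from the pan-leukocyte gene Ptprc at 31.4 and 37.9 RPKM. Without Ptprc the sum was 10.5 RPKM in mutants and 5.83 RPKM in controls. Of the 7 remaining genes with reads, 6 were higher in mutants, 2 of them at least 1.5-fold, beside 52.6% and 13.0% of all genes with reads. Their median level was 0.0856 RPKM in mutants and 0.0517 RPKM in controls. A gene of 1 kb without reads stands at 0.0349 and 0.0414 RPKM, so the direction of most of the 7 rests on very few reads. The myeloid gene Mpo was at 1.43 RPKM in mutants and 0.0492 RPKM in controls. The part of these differences in the results below was not tested. If the columns are means over libraries and the smallest values stand for 1 read in every library (see the processing), the harmonic mean of library size was 28.7 M reads in mutants and 24.1 M reads in controls.

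Several members have expressed paralogs, and how far a read can tell a pair apart is shown by their sequences. Rps27 encodes a zinc-finger protein of the small subunit, and Rps27l a paralog that is also a target of p53. Rps27 lies at chr3:90212667-90213648 on the minus strand and Rps27l at chr9:66944624-66949522 on the plus strand (GRCm38.p6). The coding sequences of both (GENCODE M21, 255 bases each) differ at 61 bases, in capitals, and are identical at 76.1% of positions:
Rps27: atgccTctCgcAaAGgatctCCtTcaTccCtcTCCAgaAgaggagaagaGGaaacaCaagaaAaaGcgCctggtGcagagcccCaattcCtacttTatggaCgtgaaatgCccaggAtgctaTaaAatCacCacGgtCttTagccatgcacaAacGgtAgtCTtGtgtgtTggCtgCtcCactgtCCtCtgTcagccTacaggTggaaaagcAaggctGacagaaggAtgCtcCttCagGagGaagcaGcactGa
Rps27l: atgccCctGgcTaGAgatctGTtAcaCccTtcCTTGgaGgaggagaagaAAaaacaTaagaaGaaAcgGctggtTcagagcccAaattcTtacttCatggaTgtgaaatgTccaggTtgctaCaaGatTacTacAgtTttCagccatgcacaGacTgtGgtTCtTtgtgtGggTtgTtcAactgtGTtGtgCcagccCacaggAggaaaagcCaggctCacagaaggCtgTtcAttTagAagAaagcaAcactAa
The longest identical run between them is 11 bases, far below the read length of 100 bases.

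The same comparison is shown for Rpl39, which lines the peptide exit tunnel, and Rpl39l, a paralog known from testis. Rpl39 lies at chrX:37082518-37085222 on the minus strand and Rpl39l at chr16:10170197-10174911 on the plus strand. Their coding sequences of 156 bases are 85.3% identical, with 23 differing bases in capitals and a longest identical run of 38 bases:
Rpl39: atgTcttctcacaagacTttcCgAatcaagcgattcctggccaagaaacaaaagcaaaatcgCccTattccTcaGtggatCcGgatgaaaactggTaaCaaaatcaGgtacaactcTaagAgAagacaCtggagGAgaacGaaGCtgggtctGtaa
Rpl39l: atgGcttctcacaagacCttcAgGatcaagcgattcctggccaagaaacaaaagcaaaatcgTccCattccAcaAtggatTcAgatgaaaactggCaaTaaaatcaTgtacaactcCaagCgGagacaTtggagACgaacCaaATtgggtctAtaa
A read of 100 bases can therefore tell the members of either pair apart. What a read cannot tell apart are exact copies elsewhere, mostly processed pseudogenes, which are described with the levels.

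The ribosomal protein genes as a set were close to equal in both groups. The median log2 ratio, log2((mutant + 1)/(control + 1)), was 0.05 over the 80 members with reads and 0.02 over all 14539 genes with reads. Of the members, 53 (66.3%) were higher and 27 lower in mutants, beside 52.6% of all genes higher and 47.4% lower. Dividing the mutant column by the median ratio of the 10486 genes with at least 1 RPKM in both groups left 47 higher and 33 lower. At least 1.5-fold higher were 2 members, Rpl27a and Rpl31, against 13.0% of all genes, and at least 1.5-fold lower was 1 member, Rpl39l, against 10.4% of all genes. No member was at least 2-fold higher (3.67% of all genes were) and Rpl39l was the only one at least 2-fold lower (3.47% of all genes were). With members and genes both taken at 10 RPKM or more in 1 group, which 76 members reached, 50 members were higher beside 52.8% of 6607 genes and 26 lower beside 47.2%. In this range 2 members were at least 1.5-fold higher (13.3% of the genes) and 0 at least 1.5-fold lower (8.58%). The counts past 2-fold were 0 higher (3.36% of the genes) and 0 lower (2.47%). One of the 76, Rps29, reached the minimum only in mutants.

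**Figure D1:**
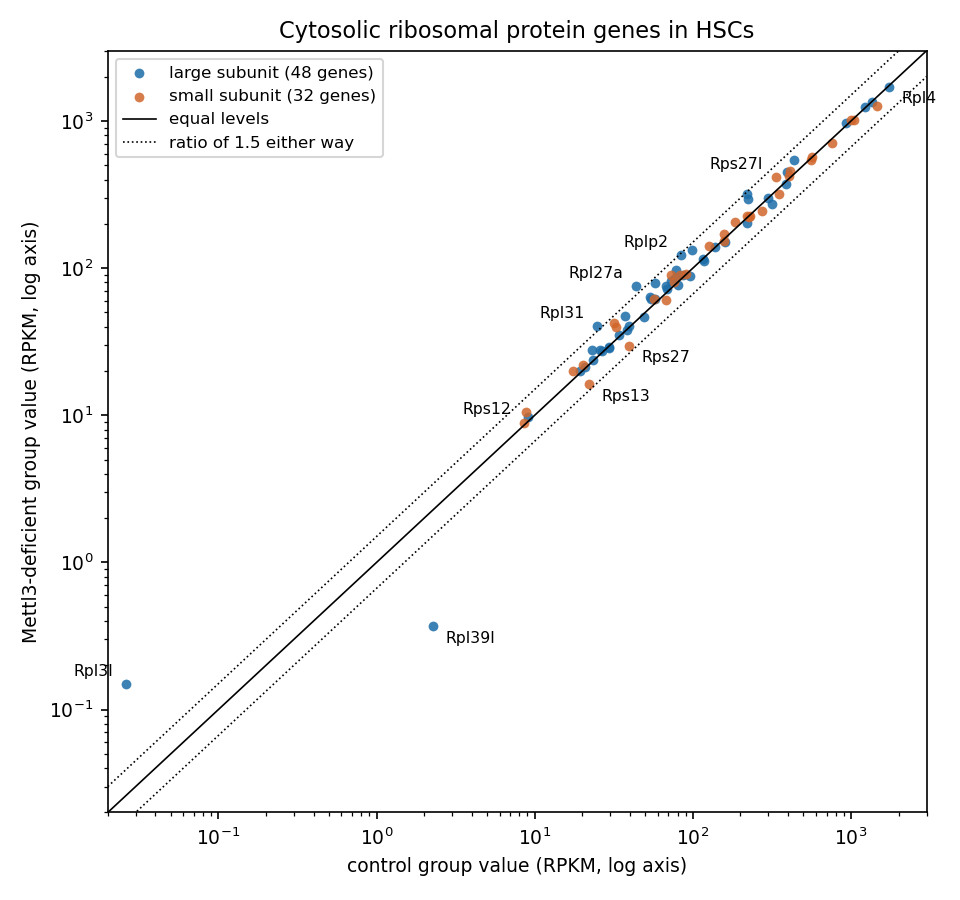
Group values in RPKM of the 80 ribosomal protein genes with reads, control on the horizontal and mutant on the vertical axis, both logarithmic; each point is 1 gene, coloured by subunit, with lines at equality and at a ratio of 1.5 either way. Most genes lie along the line of equal levels, Rpl27a and Rpl31 lie above the upper line, and Rpl39l and Rpl3l, both below 3 RPKM, lie far off it.

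The members also lay closer to equality than the average gene. Of the 80 with reads, 46 (57.5%) differed by less than 1.1-fold and 77 (96.3%) by less than 1.5-fold, against 28.0% and 76.6% of all genes with reads. The members are expressed far above the average gene, and higher genes have less counting error. Among genes with at least 50 RPKM in 1 group, a minimum set after the values were seen, 58.2% of 55 members and 30.6% of 2703 genes differed by less than 1.1-fold. The SD of the log2 ratio was 0.26 over the members with reads and 0.55 over all genes with reads. It was 0.21 over 19 other genes of the translation machinery with TOP motifs. Whether this narrower spread exceeds the difference between animals was not tested, as the table has no values per animal.

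Together the members made up 3.85% of the column sum in mutants and 3.74% in controls, with summed levels of 19248 and 18854 RPKM. The genes of the large subunit with reads summed to 10263 RPKM in mutants and 9770 RPKM in controls, those of the small subunit to 8985 and 9084 RPKM. The sums of the subunits therefore moved in opposite directions by small amounts, and in both groups a few genes dominate them: the 10 highest members held 53.9% of the summed level in mutants and 56.3% in controls. RPKM are shares of a library. A change of total mRNA per cell would not show, and in a bulk sample fewer cells with a transcript cannot be told apart from less of it per cell.

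**Figure D2:**
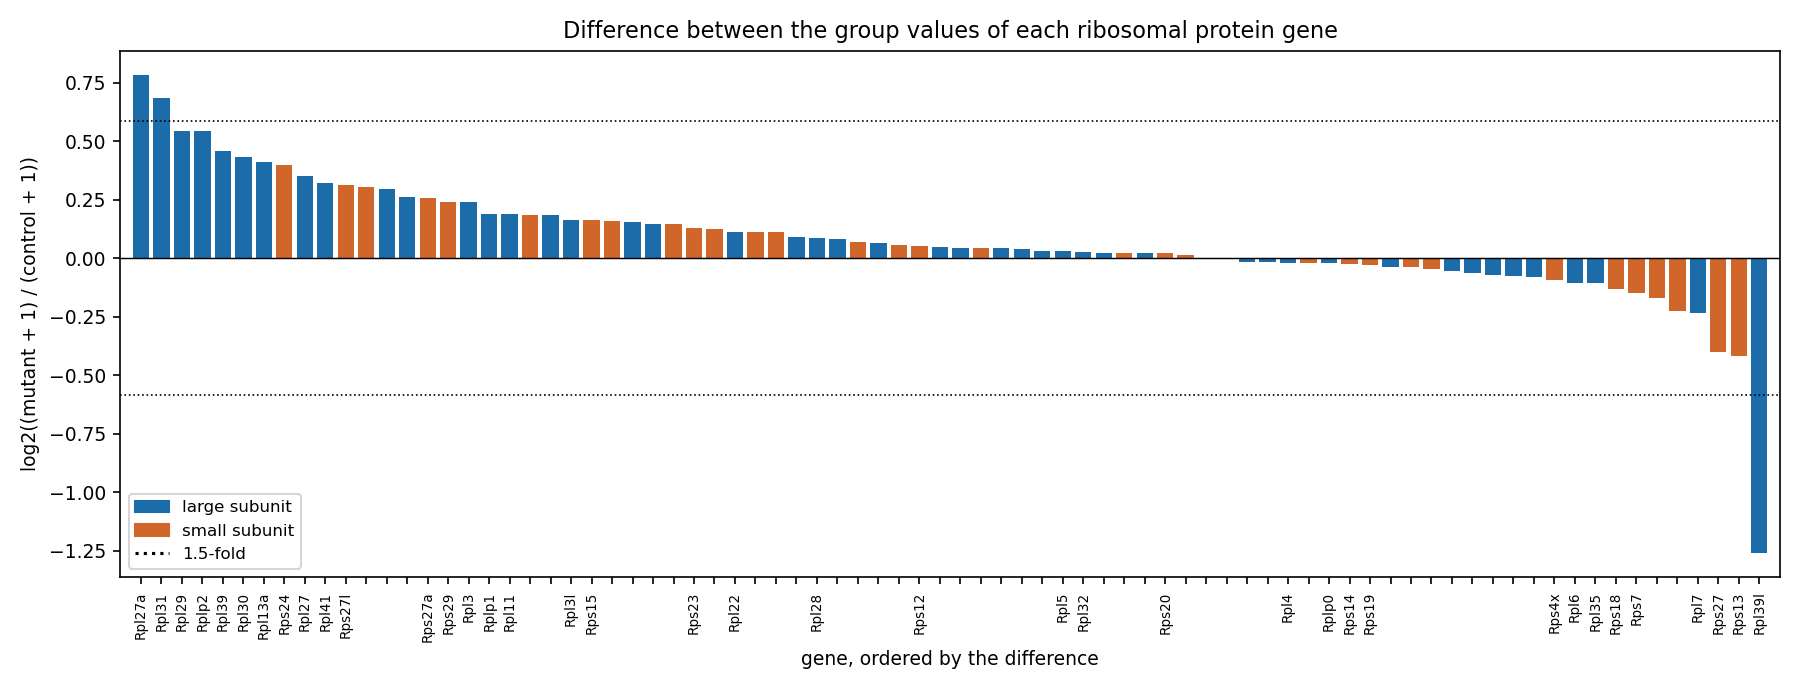
Log2((mutant + 1)/(control + 1)) of the 80 ribosomal protein genes with reads, 1 bar per gene ordered by the difference and coloured by subunit, with the genes described in the text labelled; dotted lines mark 1.5-fold either way, and there is no error bar because each group has 1 deposited value. The bars run from 0.78 for Rpl27a to -1.26 for Rpl39l, with 77 of 80 between the dotted lines.

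By subunit, 33 of 48 large (68.8%) and 20 of 32 small (62.5%) subunit genes with reads were higher in mutants, beside 52.6% of all genes with reads. The median log2 ratio was 0.05 for the large and 0.05 for the small subunit, so the typical gene of either differed by the same small amount. The large subunit reached further: its mean was 0.10 and its SD 0.30, against 0.04 and 0.19 for the small subunit. At 10 RPKM or more, which leaves out Rpl39l, the SDs were 0.22 and 0.19. Of the 10 members that were highest in mutants relative to controls, 9 were of the large subunit, and of the 10 lowest at 10 RPKM or more, 7 were of the small subunit. The 76 members at that level were 45 of the large and 31 of the small subunit. Whether the subunits differ was not tested.

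Rpl27a, a large-subunit protein (chr7:109519195-109522369), stood farthest above equality, at 75.7 RPKM in mutants and 43.6 RPKM in controls, a log2 ratio of 0.78. Rpl31, which sits near the mouth of the exit tunnel (chr1:39367851-39371911), was at 40.5 RPKM in mutants and 24.8 RPKM in controls, a log2 ratio of 0.69. Both are genes whose reads other copies can take or add to: all 100-base windows of their coding sequences also occur in other annotated genes. Rpl29 was at 320 RPKM in mutants and 219 RPKM in controls (log2 ratio 0.55), with 77.6% of its coding windows shared.

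Some of the other members well above equality shared fewer of their windows. Rplp2, of the acidic stalk that recruits elongation factors, was at 123 RPKM in mutants and 83.8 RPKM in controls, with 33.7% of its coding windows shared. Rpl39 was at 79.4 RPKM in mutants and 57.6 RPKM in controls, a log2 ratio of 0.46, with 15.8% shared. Rps24, of the small subunit and mutated in Diamond-Blackfan anaemia in human, was at 42.3 and 31.9 RPKM, a log2 ratio of 0.40, with 48.8% shared. The members with no shared coding window reached 0.31 (Rps27l) and 0.30 (Rps21), and the part of read assignment in the larger differences was not tested.

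The rest of the 10 highest were Rpl30 at 133 RPKM in mutants and 98.3 RPKM in controls, Rpl13a at 296 and 223 RPKM, Rpl27 at 47.6 and 37.1 RPKM and Rpl41, which encodes the shortest ribosomal protein, at 545 and 435 RPKM. RPL13A has a known role outside the ribosome, in silencing inflammatory transcripts after interferon-γ in human monocytes. The log2 ratios of these 4 genes lay between 0.32 for Rpl41 and 0.43 for Rpl30. Rpl27 shared 100% of its coding windows, Rpl13a 97.3% and Rpl30 61.4%, and Rpl41 is too short for such a value.

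On the lower side the differences of well-expressed members were smaller. Rps13 (chr7:116331507-116334190) was at 16.3 RPKM in mutants and 22.1 RPKM in controls, a log2 ratio of -0.42, and is a low member with 99.2% of its coding windows shared. Rps27 was at 29.6 RPKM in mutants and 39.4 RPKM in controls, a log2 ratio of -0.40, with all of its coding windows shared. Rpl7, of the large subunit, is a higher member and was at 271 RPKM in mutants and 318 RPKM in controls, a log2 ratio of -0.23.

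Also among the 10 lowest were Rps7 at 61.0 RPKM in mutants and 67.6 RPKM in controls, Rps18 at 319 and 350 RPKM, Rpl35 at 89.0 and 96.0 RPKM, Rpl6 at 203 and 219 RPKM and Rps4x, the X-linked member of the RPS4 family, at 711 and 758 RPKM. Their log2 ratios lay between -0.15 for Rps7 and -0.09 for Rps4x, so even this end of the order lies inside the 1.5-fold bounds.

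The precision of these means can be given for counting alone. With the smallest values read as 1 read per library and transcript lengths from GENCODE, the 76 members at 10 RPKM or more held between 117 and 75395 reads per library in mutants and between 81.7 and 64224 in controls. The counting standard error of their log2 ratios ran from 0.004 for Rpl4 to 0.11 for Rps29, with a median of 0.02. It was 0.03 for Rpl27a, 0.04 for Rpl31 and 0.06 for Rps13. Counting error was therefore smaller than the differences of these 3 genes. It leaves out the spread between animals, which the deposited values hide, and the amplification from 150 cells.

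Levels of the members differed far more within a group than between the groups. Over the 76 members at 10 RPKM or more in 1 group, levels ran from 10.6 to 1708 RPKM in mutants, with a median of 90.9 RPKM, and from 8.79 to 1731 RPKM in controls, with a median of 85.2 RPKM. The highest was 161 times the lowest in mutants and 197 times in controls. Rpl4 was highest in both groups at 1708 RPKM in mutants and 1731 RPKM in controls. Also among the 5 highest were Rplp0, the stalk base, at 1335 and 1355 RPKM, Rpl32 at 1243 and 1221 RPKM and Rps14 at 1023 and 1040 RPKM. Apart from Rpl10l, Rpl3l and Rpl39l, the lowest were Rps12 at 8.92 and 8.57 RPKM and Rpl28 at 9.71 and 9.09 RPKM.

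The order of levels was nearly the same in both groups. Across the 76 members the log2 levels of the groups had a Pearson r of 0.99 and a Spearman rho of 0.99, a description of 2 columns that share gene length and sequence. No member moved by more than 9 places of 81 in rank. Among the 500 highest genes of the table were 27 members in mutants and 26 in controls. A spread of this width between mRNAs whose proteins are used in matched amounts was set beside what the sequences allow a read to resolve.

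Sequence sharing went with level. In GENCODE M21, 71 of the 81 members had at least 1 coding window of 100 bases that also occurs, on either strand, in the transcript of another gene, and for 70 the other genes included an annotated pseudogene. Of the members, 21 shared every coding window and 9 shared none. The members that shared every window ran from 8.92 to 141 RPKM in mutants and from 8.57 to 127 RPKM in controls, and no member of this kind reached 500 RPKM. Of the 10 members that averaged at least 500 RPKM and have coding windows, 9 shared 50% or fewer and 1, Rps20, shared 81.6%. Rpl41, with a coding sequence of 78 bases, is shorter than a window and has no such value.

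**Figure D3:**
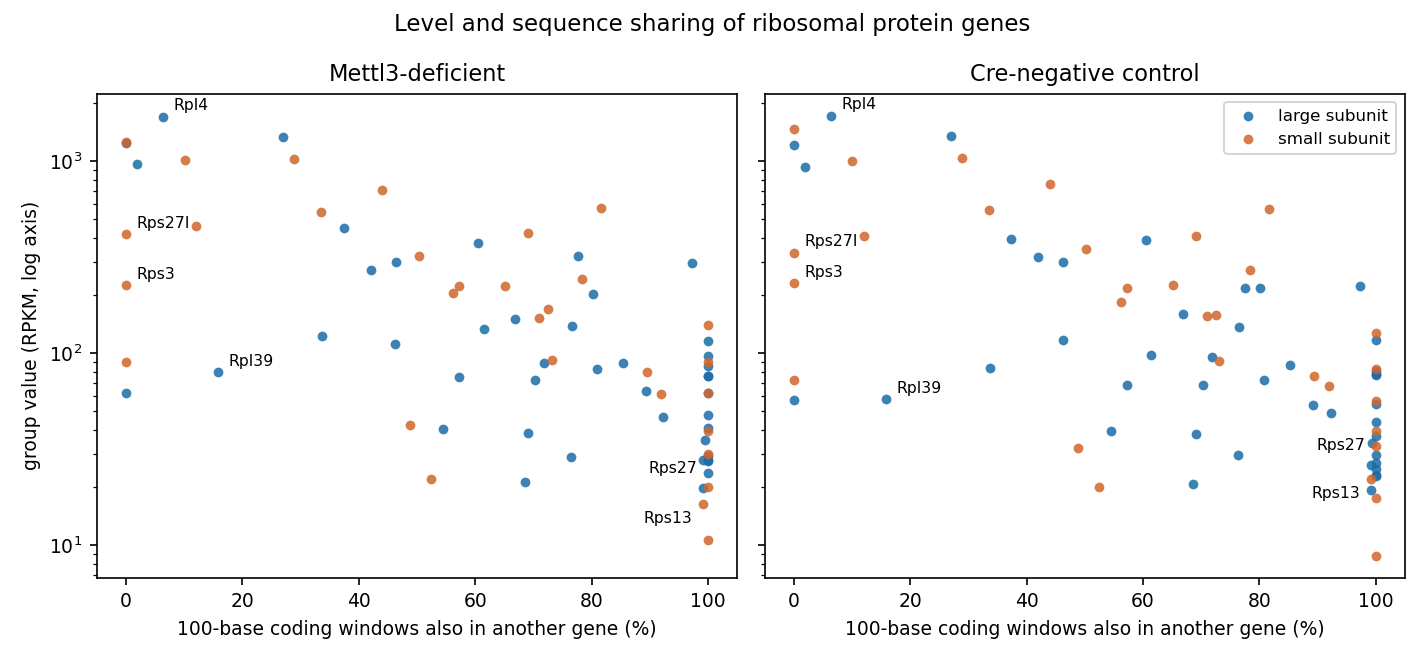
Share of the 100-base coding windows of each ribosomal protein gene that also occur in another gene's transcript (horizontal, percent) against the group value in RPKM (vertical, logarithmic), mutants on the left and controls on the right, for 75 genes with at least 10 RPKM in 1 group. Levels fall towards the right in both panels, and the genes at 100% lie below 150 RPKM.

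Across 75 members the shared percentage and the log2 level had a Pearson r of -0.65 and a Spearman rho of -0.62 in mutants, and -0.65 and -0.62 in controls. Split at 25% and 75% shared, points set after the values were seen, the median level was 458 RPKM in mutants and 410 RPKM in controls for the 11 least shared members. For the 28 in between it was 161 and 158 RPKM, and for the 36 most shared 61.8 and 53.9 RPKM. The treatment of reads with several matches is not given in the labels, and its part in the levels was not tested. The points share libraries and gene models, and coding length and pseudogene number differ among them as well.

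The log2 ratio did not follow the sharing in this way. Its Spearman rho with the shared percentage was 0.15 and Pearson r 0.06 across the same 75 members, and the median log2 ratios of the 3 classes were 0.06, 0.01 and 0.08 from least to most shared. The spread did differ, with an SD of 0.19 in the least, 0.17 in the middle and 0.25 in the most shared class. The pair with the highest log2 ratios and the pair with the lowest, at 10 RPKM or more, were all in the most shared class.

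Shorter proteins went with higher ratios. Across the 76 members the log2 coding length and the log2 ratio had a Spearman rho of -0.36 and a Pearson r of -0.30. Of the 24 members with up to 400 coding bases, 19 were higher in mutants, with a median log2 ratio of 0.15. Of the 22 members with more than 600 coding bases, 11 were higher, with a median of 0.01. Over 5858 genes at 10 RPKM or more with a coding length in GENCODE, the Spearman rho of the longest coding length with the log2 ratio was 0.05, and over the 76 members, by that same measure, it was -0.37. Transcript length gave a rho of -0.11 across the members. These are descriptions of 1 value per group, and fragment size and RNA quality of the libraries are not in the table.

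By position on the ribosome, the stalk and the exit tunnel both held contrasts. Rplp0 was at 1335 RPKM in mutants and 1355 RPKM in controls, Rplp1 at 449 and 394 RPKM and Rplp2 at 123 and 83.8 RPKM, so the base was level while both acidic proteins were higher. Rpl5 and Rpl11 carry 5S ribosomal RNA into the large subunit and bind the p53 regulator MDM2 when ribosome assembly fails. Rpl5 was at 27.4 RPKM in mutants and 26.8 RPKM in controls, and Rpl11 at 61.8 RPKM in mutants and 54.1 RPKM in controls. Of 7 genes listed for the peptide exit tunnel, a list without Rpl31, 4 were higher and 3 lower. Over all members with reads 66.3% were higher, and over all genes with reads 52.6%. Within this list Rpl39 was highest and Rpl35, at 89.0 RPKM in mutants and 96.0 RPKM in controls, lowest in mutants relative to controls. Of 5 measured genes at the mRNA entry and decoding side of the small subunit, 4 were higher, led by Rps15 at 458 and 410 RPKM and Rps23 at 61.9 and 56.6 RPKM.

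Of the 22 genes mutated in Diamond-Blackfan anaemia in human, 16 (72.7%) were higher and 6 lower in mutants, beside 66.3% of all members with reads higher. Their median log2 ratio was 0.07 beside 0.05 for all members with reads. Rpl31 was the only one of the 22 at least 1.5-fold apart (4.55%), beside 3.75% of all members and 23.4% of all genes with reads. Rps19, the gene most often mutated in that disease, was at 223 RPKM in mutants and 228 RPKM in controls.

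The ratio within paralog pairs shifted in both directions. Rps27l was at 416 RPKM in mutants and 334 RPKM in controls, so it made up 93.4% of the pair with Rps27 in mutants and 89.5% in controls. None of the 100-base windows of Rps27l occurs elsewhere, whereas all coding windows of Rps27 do, and the part of read assignment in this imbalance was not tested. Rpl39l was at 0.370 RPKM in mutants and 2.28 RPKM in controls, the only member past 2-fold, and made up 0.464% and 3.81% of the pair with Rpl39. At such levels few reads carry the value, about 7.54 per library in mutants by the reading above, against 43.2 in controls, and the counting standard error of its log2 ratio was 0.29. How the reads were spread over libraries is not in the table.

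The testis paralog Rpl10l stood at the value of a gene without reads in both groups. Rpl3l, which replaces Rpl3 in skeletal and cardiac muscle, was without reads in controls and at 0.149 RPKM in mutants, 6.80 times the value of a gene without reads. Its parent Rpl3 was at 63.7 RPKM in mutants and 53.8 RPKM in controls. Rpl10l and Rpl3l were thus at or near 0 in these cells, unlike Rps27l.

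Cytosolic ribosomal protein genes outside the naming rule were read beside the set. Rpl36al was at 159 RPKM in mutants and 100.3 RPKM in controls, a log2 ratio of 0.66, and made up 85.1% of the pair with Rpl36a in mutants and 81.4% in controls. Rpl22l1 went the other way, at 133 RPKM in mutants and 169 RPKM in controls, while Rpl22, whose protein represses it in mouse, was at 62.1 and 57.3 RPKM. Rpl7l1 was at 65.6 RPKM in mutants and 72.9 RPKM in controls, and Rps4y2 at 33.6 and 33.3 RPKM. These paralogs thus lay on both sides of equality. Fau encodes a ubiquitin-like protein fused to a ribosomal protein, and Rps27a is a ubiquitin fusion inside the set. Rps27a was at 39.5 RPKM in mutants and 32.9 RPKM in controls. Fau was at 27.3 RPKM in mutants and 24.4 RPKM in controls. Both were thus higher in mutants, by a log2 ratio of at most 0.26.

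TOP letters were looked for at the start sites of RefSeq (GRCm38.p6, 250 bases before to 50 after the start), which hold 61 of the 81 members. A C at the first transcribed base followed by at least 4 bases that are each C or T was found in 13 members (21.3%), against 3.01% of 27025 genes. RefSeq starts can lie off the used start by some bases, so a missing match says only that these letters are not there. The windows below run from 15 bases before to 15 bases from the start, with the pyrimidine run that begins at the start in capitals. They are shown for members at both ends of the order and for the Rps27 pair:
Rplp2 (chr7:141447636-141447665, plus): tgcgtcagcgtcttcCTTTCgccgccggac
Rpl27a (chr7:109519180-109519209, plus): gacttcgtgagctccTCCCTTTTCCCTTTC
Rpl31 (chr1:39367836-39367865, plus): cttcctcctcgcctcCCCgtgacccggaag
Rpl35 (chr2:39005117-39005146, minus): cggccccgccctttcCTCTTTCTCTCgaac
Rps27 (chr3:90213634-90213663, minus): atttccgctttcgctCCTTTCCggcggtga
Rps27l (chr9:66946071-66946100, plus): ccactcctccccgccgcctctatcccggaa
Rplp2 and Rpl35 begin with a C and a pyrimidine run and stood at opposite ends of the order. Rpl27a begins with a T inside a long run and was not counted. Rps27l has no pyrimidine at this start, nor at its other RefSeq start (chr9:66946398-66946427). Both of these windows lie inside the gene, whose bounds begin at 66944624, so they may not hold the used start. The 12 members with the TOP letters and 10 RPKM or more had a median log2 ratio of 0.12, and the 44 without had one of 0.04, and the ratios of both classes overlapped widely.

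Transcripts of other proteins that carry TOP motifs were read beside the set. Of 19 such genes of the translation machinery and related functions, 5 were higher and 14 lower in mutants, with a median log2 ratio of -0.05, beside 47.4% of all genes lower. None of the 19 was 1.5-fold apart, beside 23.4% of all genes with reads. Tpt1, which encodes a translationally controlled protein of growth regulation, was at 31.7 RPKM in mutants and 45.8 RPKM in controls, and Pabpc1, the poly(A)-binding protein, at 128 and 172 RPKM. The difference between this list and the ribosomal protein genes was not tested.

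Among regulators of TOP mRNA translation, 11 of 17 were higher and 6 lower. Over all genes with reads, 52.6% were higher and 47.4% lower. Past 1.5-fold, 4 of the 17 lay above controls and 2 below, beside 13.0% and 10.4% of all genes with reads. The 2 genes farthest from equality were both among the 4 above controls. Eif4ebp2, a repressor of cap-dependent initiation, was at 5.43 RPKM in mutants and 0.856 RPKM in controls, and Larp1, which binds TOP mRNAs, at 4.69 and 2.28 RPKM. Both are low genes, and the set of ribosomal protein genes beside them had a median log2 ratio of 0.05. Of 14 genes of RNA polymerase I and its factors, 7 were higher and 7 lower, with Taf1b at 30.1 and 55.0 RPKM and Cd3eap at 15.6 and 25.7 RPKM. Of 10 chaperones that escort ribosomal proteins or assemble subunits, 5 were higher, led by Grwd1 at 172 and 104 RPKM and Bysl at 53.6 and 36.0 RPKM.

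**Figure D4:**
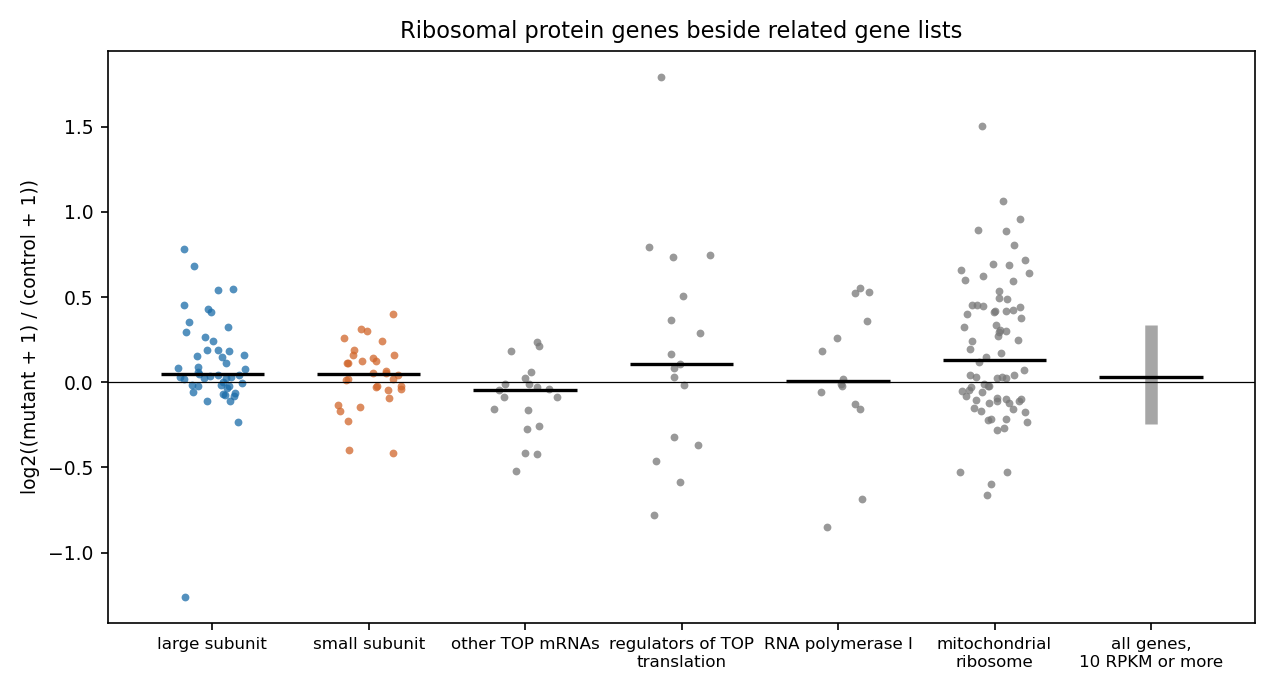
Log2((mutant + 1)/(control + 1)) of single genes (points) in the large and small subunit and in 4 related lists, with the median of each list as a line; the last column shows the median and the quartiles of all genes with at least 10 RPKM in 1 group. The medians are 0.05 for each subunit, -0.05 for other TOP mRNAs and 0.13 for the mitochondrial ribosome, whose points spread more widely.

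Genes of the mitochondrial ribosome, a separate ribosome with nuclear-encoded proteins, spread more widely than those of the cytosolic one, though less than all genes. Of 76, 46 (60.5%) were higher and 30 lower, beside 52.6% of all genes with reads higher. Their median log2 ratio was 0.13 and its SD 0.41, against 0.05 and 0.26 for the cytosolic set and 0.02 and 0.55 for all genes with reads. At least 1.5-fold higher were 14 of them, among them Mrpl43 at 175 RPKM in mutants and 61.0 RPKM in controls, and at least 1.5-fold lower were 2, beside 13.0% and 10.4% of all genes. Of the cytosolic set, 2 and 1 of 80 were. No test of the difference is possible with 1 value per group.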

How the data were processed

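RNA-seq was made from 7 Smart-seq2 libraries of sorted HSCs, 4 mutant and 3 control. Per the file headers, the authors deposited RPKM as a control and a mutant column; how libraries were combined is not stated. Per the submitters' processing notes the build was mm10 and the tools were Picard and edgeR. The aligner, the counting of reads with several matches and the gene models are not given in the labels or the header.

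With 1 value per group, no test was run. Differences are log2 ratios of mutant to control after adding 1 RPKM to both, which understates changes of low genes; folds of 1.5 and 2 on that scale are rules of size. In 8499 genes (36.9%) the mutant/control ratio was the same 0.841 (to 5 decimals), and in 99.99% of these a constant divided by the value was a whole number of bases (within 0.01). The constants, 0.0349 RPKM in mutants and 0.0414 RPKM in controls for 1 kb, were read as 1 read added per library, and such genes as without reads. The procedure was also run on simulated data made with 1 read added per library, so that run cannot check this reading of the constants.

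Positions and start sites came from RefSeq GRCm38.p6 (all 81 members matched), transcripts from GENCODE M21, both on the mm10 assembly. A 100-base coding window counted as shared when it occurred exactly, on either strand, in a transcript of another gene; unannotated copies are missed. Genes named are the 10 farthest apart each way at 10 RPKM or more, the 5 highest and 5 lowest levels, members of the stalk, 5S and paralog lists, members past 1.5-fold and the 2 farthest apart of each other list. Rps20, Rps19, the members whose sign turned and further marker, fusion and paralog genes were named after their values were seen. Members and lists were chosen with earlier results of these data known. The classes of coding length, sequence sharing and start letters were set after values were seen. Some genes are not reported here by name. Scripts used Python 3.11.15, pandas 2.3.3 and scipy 1.17.1.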

Additional observations from a re-analysis of the deposited data

How the results depend on the processing

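The median log2 ratio of the ribosomal protein genes, 0.05 as reported, was 0.02 with the mutant column divided by the median ratio, and the mean was 0.08. It stayed above 0 under every setting run: a pseudocount of 0.1 RPKM or none, the mutant column divided by the median ratio of 10486 genes (1.02), equal column sums, subtraction of the value of genes without reads, minimums of 1 and 10 RPKM, other member sets and the mean. The numbers of members higher and lower stayed within 1.5 times. Dividing by the median ratio turned the sign of 6 members (Rpl17, Rpl21, Rpl23 and Rps20 among them) and equal sums that of 1 (Rpl26). With no pseudocount 1 member, Rpl3l, was at least 2-fold higher. With a minimum of 10 RPKM, or without the tissue-restricted paralogs, 0 members were at least 1.5-fold and 0 at least 2-fold lower, because Rpl39l is then left out. Without the 4 members that have a pseudogene row of their name in the table, 1 was at least 1.5-fold higher, because Rpl31 is left out. Over all genes, those at least 1.5-fold higher and lower numbered 2926 and 2487 with a pseudocount of 0.1 RPKM, 3319 and 2786 with none and 876 and 567 with a minimum of 10 RPKM. Those at least 2-fold higher and lower numbered 1508 and 1347, 1981 and 1674, and 222 and 163 under the same settings, since low genes then count more or not at all. Of 54 named genes, 5 moved by 0.1 or more with a pseudocount of 0.1 RPKM and 6 with none, all of them below 10 RPKM in at least 1 group; Rpl39l reached -2.34 and -2.62 on the log2 scale.

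No paired analysis was possible because each deposited column is 1 value per group with no replicate number. Tests on libraries, DESeq2 and leaving out libraries were not run for the same reason. Differences between single group values cannot be set against the spread between animals here, and the part of read assignment in the levels of members with exact copies elsewhere was not tested.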

Other observations

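In the deposited table the first 365 genes are not in order of gene identifier and the remaining 22673 are. Of the first 365, 319 are at least 1.5-fold apart, beside 23.4% of all genes with reads. None of the 81 ribosomal protein genes is among them, but a block of 365 in 23038 genes would hold very few of any 81 genes. The labels do not explain this order.

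In GENCODE M21, 30 of the 81 members hold at least 1 snoRNA gene within their bounds on the same strand. The number of snoRNA genes had a Spearman rho of -0.07 with the log2 ratio across 76 members, and 0.00 with the log2 level in both mutants and controls. The members lie on 19 chromosomes, 14 of them on chromosome 7. At 10 RPKM or more, 8 of 13 members of chromosome 7 were higher in mutants, with log2 ratios between -0.42 for Rps13 and 0.78 for Rpl27a. On chromosome 11 it was 6 of 7, with log2 ratios between -0.004 and 0.35. The numbers were 4 of 5 on chromosome 4, 5 of 6 on chromosome 17, 4 of 7 on chromosome 9 and 2 of 5 on chromosome 5. Over all 76 members 65.8% were higher, beside 52.8% of all genes in this range.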
